A study of Mus musculus with 15 samples.

Results

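Tumor derived endothelial cells (TDECs) were grown from 005, a mouse glioma stem cell line, and were placed gene by gene between the cells they came from and mouse brain microvascular endothelial cells (MBMECs). The comparison used 9 of the 15 libraries of the series, 3 each of 005, TDECs and MBMECs, chosen by their group labels. The 005 cells were kept as stem cells without serum, the TDECs were 005 cells moved to the endothelial growth medium EGM-2 at 1% oxygen, and the MBMECs were purchased cells grown in their own complete medium with serum. All are labelled as C57BL/6. The TDEC libraries carry no day in their labels and were taken as day 5 from the study's methods. The remaining libraries were TDECs on day 2 and TDECs given 5 µM sertraline for 24 h, and served here as samples that the placement of genes did not use. TDECs differ from 005 in medium, oxygen and time together, which cannot be told apart, and no oxygen level is given for MBMECs. All TDECs descend from 1 line. Biological replicates are stated only where TDECs were compared with and without the drug. Nothing says whether the 005 or the MBMEC libraries came from separate cultures, so that p-values measure the spread between these libraries, which may be technical.

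Endothelial cells line vessels. They are recognised by junction proteins such as VE-cadherin and claudin-5, by receptor tyrosine kinases for VEGF and angiopoietins, and by transcription factors of the ETS and SoxF families that switch the cell type on. Those of the brain also carry transporters of the blood-brain barrier. Neural and glioma stem cells instead depend on factors such as Sox2 and Olig2.

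The libraries held 12732819 to 12972933 counts in 005, 11283680 to 12455832 in TDECs and 15617686 to 17093061 in MBMECs, and levels are given as CPM, the count of a gene as a share of the library's total after scaling by TMM. Mitochondrially encoded genes took 2.16% to 2.70%, 3.48% to 3.596% and 1.41% to 1.62% of them. In 005, replicate 3 stood apart from the other 2 libraries (chi-square per gene 10.4 and 10.6, against 2.09 between those 2), so counts are also given without it where they move. Labels were checked against markers. Sox2 was at 282 to 308 CPM and Olig2 at 521 to 609 CPM in 005, with no count of either in MBMECs. VE-cadherin (Cdh5) was at 2105 to 2196 CPM and Pecam1 (CD31) at 1261 to 1312 CPM in MBMECs. The 8 tested of 20 microglia and leukocyte genes summed to 157 to 175 CPM in MBMECs, and Ptprc (CD45), Cx3cr1 and Aif1 did not pass the filter on low counts. Of 22 mural genes 13 were tested, and these summed to 2450 to 2499 CPM in MBMECs, against 528 to 612 CPM in 005. Among them 7 were called higher and 5 lower in MBMECs than in 005. Rgs5, Myh11 and Des were not tested, and Acta2 averaged 1.34 CPM in MBMECs. The 30 tested of 40 fibrillar matrix and fibroblast genes summed to 5097 to 5623 CPM in MBMECs.

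For each of the 16538 genes that passed the filter, of 49585 in the table, the position of TDECs was the difference between TDECs and 005 divided by that between MBMECs and 005, on the mean log2 CPM. A position of 0 is the level of 005 and 1 that of MBMECs. It was read only where MBMECs and 005 were called apart, by an adjusted p under 0.05 from edgeR's quasi-likelihood test with more than a 2-fold difference, which gives the gene a line. A gene that was called between TDECs and 005 in the direction of MBMECs moved toward them if it was still called short of their level, reached it if it was not called apart from them, and went past it if it was called beyond. A gene called in the other direction moved away, and the rest stayed. Lama4, at a log2 difference of -0.99 between MBMECs and 005, fell just short of having a line, and Pgk1, at 1.00, just had one.

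TDECs moved little of the way. MBMECs were called above 005 for 3013 genes (18.2% of those tested) and below for 4352 (26.3%), which gave 7365 genes a line. Of these 4985 (67.7%) stayed, 1485 moved toward, reached or went past the MBMEC level, and 895 moved away. The median position was 0.054, with quartiles of -0.159 and 0.303. TDECs themselves were called above 005 for 2240 genes (13.5%) and below for 1627 (9.84%). Of these 3867 genes 2380 had a line and 1487 (38.5%) had none, where 44.5% of all tested genes had a line. When libraries were scaled by their totals in place of TMM, 46.9% of the calls between TDECs and 005 were upward, against 57.9%. That scaling moved the median log2 difference over all genes between TDECs and 005 from 0.018 to -0.13 and that between MBMECs and 005 from -0.108 to -0.332. TDECs were called above MBMECs for 4786 genes (28.9%) and below for 3375 (20.4%).

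As whole profiles over the tested genes, the TDEC libraries lay at 0.0668 ± 0.0004 of the line from 005 to MBMECs (SD, n = 3), where 005 lay at 0.0055 ± 0.0025 and MBMECs at 0.996 ± 0.0045. The line was 338 log2 CPM units long. TDECs lay 22.6 units along it and 138 units off it, so that most of their distance from 005 pointed elsewhere. Their distance to the MBMEC mean was 344.4 units and that of 005 was 339.5. Day 2 TDECs lay at 0.0404 ± 0.0152 along the line and 92.4 units off it. Their replicate 3 stood apart (chi-square per gene 10.4 and 10.9, against 2.46) and lay at 0.0579, the others at 0.0319 and 0.0313. Sertraline-treated TDECs lay at 0.0741 ± 0.0062 along the line and 130 units off it. Their replicate 2 stood apart (6.51 and 6.78, against 2.21) and lay at 0.0812. The order of the means along the line was thus 005, day 2, TDECs and sertraline-treated TDECs. The means of the last 2 were about 1 SD of the treated libraries apart. Their libraries did not overlap, at 0.0665 to 0.0672 in TDECs and 0.0703 to 0.0812 with sertraline. The 005 libraries themselves lay 43.4 units off the line on average.

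**Figure D1:**
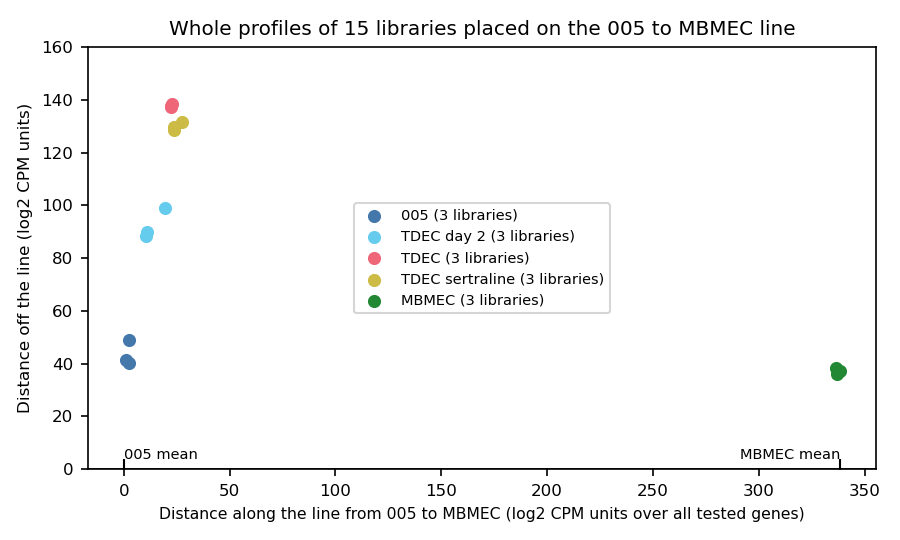
Each point is 1 of 15 libraries, with its distance along the line from the 005 mean to the MBMEC mean on the x axis and its distance off that line on the y axis, both in log2 CPM units over all tested genes. TDECs lie at 22.6 units along and 138 units off the line, and MBMECs at 337 units along.

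The classes were distributed differently over lines of different length. By construction a gene moved toward only on a line of more than 2 log2 units, since it had to be called from both ends. Among genes higher in MBMECs, 178 of 1279 with a line of 1 to 2 log2 units reached the MBMEC level (13.9%), as did 112 of 882 with 2 to 4 (12.7%) and 21 of 581 with 4 to 8 (3.61%). Of 271 genes more than 8 log2 units higher in MBMECs, 60 moved toward, 5 moved away, 206 stayed and 0 reached or passed it. In TDECs 231 of these 271 were below 1% of their MBMEC level, and 222 had under 10 counts in every 005 and TDEC library, so that they were tested through their MBMEC counts. Genes lower in MBMECs moved away in 202 of 926 with a line of 2 to 4 log2 units (21.8%) and in 273 of 1068 with 4 to 8 (25.6%). Over all lengths, genes lower in MBMECs moved toward, reached or passed in 17.3% and moved away in 16.6%, against 24.3% and 5.77% of genes higher in MBMECs. The 2 sides differ in their floor, which limits this comparison. On the higher side 562 genes had under 10 counts in every 005 and TDEC library, and so little room to fall away. On the lower side few counts lay at the MBMEC end. Under 10 in every MBMEC library were 885 of 1068 genes with 4 to 8 log2 units and 865 of 872 with more.

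**Figure D2:**
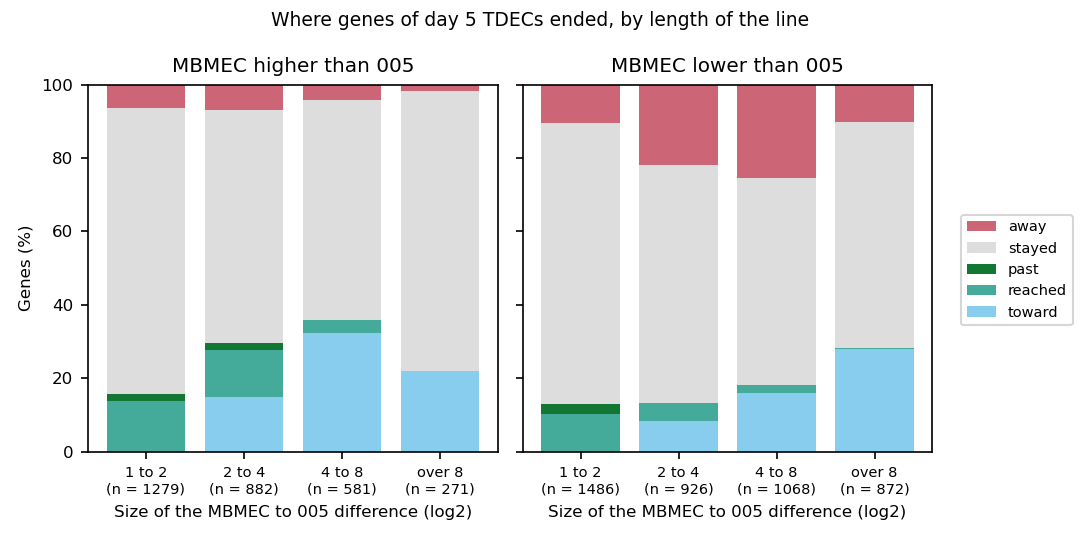
Bars give the percentage of genes in each class by the size of the log2 difference between MBMECs and 005, for genes higher (left) and lower (right) in MBMECs, with the number of genes below each bar. No gene more than 8 log2 units higher in MBMECs reached their level, and 77.7% of those with 1 to 2 units stayed.

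The genes by which endothelium is recognised stayed in a share close to that of all genes with a line, and most were far below MBMECs. The 39 endothelial markers were all tested and all had a line, 38 of them with higher levels in MBMECs. Of the 39, 7 rose toward MBMECs, 4 fell away (10.3%) and 1 fell to the MBMEC level. The other 27 stayed (69.2%, against 67.7% of all genes with a line). Of all genes higher in MBMECs, 12.5% rose toward them, 10.3% rose to their level, 5.77% fell away and 70% stayed. The 7 above 005 were 17.9% of the list, against 13.5% of all genes. The median position of the list was 0.000, against 0.054 over all genes with a line and 0.111 over those higher in MBMECs. In TDECs 24 of the 39 were below 1% of the MBMEC level. The summed level of the list was 350 to 365 CPM in 005, 430 to 451 CPM in TDECs and 18280 to 18450 CPM in MBMECs. Scaled by library totals 5 members were above and 8 below 005, and by DESeq2 8 and 6, so that the balance of the list turned with the scaling. Without 005 replicate 1, 6 were above and 8 below. Fewer cells of an endothelial type and less RNA per cell cannot be told apart in these bulk libraries. Because 14 of the 39 had under 10 counts in every 005 and TDEC library, their lines rest on the MBMEC counts.

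The VEGF receptor Flt1 (VEGFR1) had the highest position of the 38 markers that MBMECs hold above 005. It was at 1.34, 1.66 and 1.99 CPM in 005, at 44.5, 40.6 and 38.9 CPM in TDECs and 174, 171 and 169 CPM in MBMECs. The groups did not overlap, and the log2 difference of TDECs from 005 was 4.62 (SE 0.12, edgeR adjusted p = 6.3e-15), a position of 0.69 ± 0.01 (SE) that corresponds to 24.2% of the MBMEC level. Kdr (VEGFR2), the main signalling receptor for VEGF, was at 1.13, 0.721 and 1.71 CPM in 005 and at 4.43, 3.82 and 3.80 CPM in TDECs. MBMECs held 584 to 617 CPM of it, so that Kdr rose by 1.74 log2 units (SE 0.21, edgeR adjusted p = 1.7e-06) to 0.674% of the MBMEC level. Stab1, a scavenger receptor, rose from 3.61 to 4.17 CPM in 005 to 14.1 to 18.8 CPM and reached 2.87% of the MBMEC level. Cd93 went from 39.4 to 43.4 CPM to 84.1 to 89.8 CPM, or 15.6% of it. The sphingosine 1-phosphate receptor S1pr1 (log2 difference 1.09) and the matrix protein Mmrn2 (2.17) rose as well, to 1.99% and 3.53%. Robo4, a guidance receptor of vessels, had no count in 005 and 14 counts over the TDEC libraries, at least 5.57-fold higher than the floor of 3 counts summed over 3 libraries, against 188 to 207 CPM in MBMECs.

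The markers that stayed include those that define the cell type. Claudin-5 (Cldn5), the main tight junction protein of brain endothelium, and Sox17, a SoxF factor, had no count in any 005 or TDEC library, and 907 to 1042 CPM and 166 to 189 CPM in MBMECs. Both were thus at least 11540-fold and 2102-fold higher in MBMECs than in TDECs, taken from the same floor. Cdh5 was at 0, 0.249 and 0 CPM in TDECs. The lymphatic and sinusoidal marker Lyve1 and the receptor Tie1 had no count in TDECs and averaged 475 and 819 CPM in MBMECs. Pecam1 was at 0.989, 1.44 and 1.64 CPM in 005 and at 0.633, 0.830 and 0.742 CPM in TDECs, lower in every TDEC library by a log2 difference of -0.87 (SE 0.25), which is under 2-fold. Cd34 was at 0.636 to 1.15 CPM in 005 and 0.330 to 0.747 CPM in TDECs, against 1465 to 1551 CPM in MBMECs. The endothelial nitric oxide synthase Nos3 and the ETS factor Erg were at 0.0282% and 0.0728% of the MBMEC level. Tek (TIE2), the angiopoietin receptor, was at 0, 0.361 and 0 CPM in 005 and at 0.543, 0.415 and 0.248 CPM in TDECs, a log2 difference of 1.67 (SE 0.77) that did not pass (edgeR adjusted p = 0.071). Ramp2, an adrenomedullin receptor subunit, fell away, from 10.95 to 11.5 CPM to 2.81 to 4.79 CPM (-1.56), as did Tal1 (-1.54), Apold1 (-1.81) and Ecscr (-1.90).

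**Figure D3:**
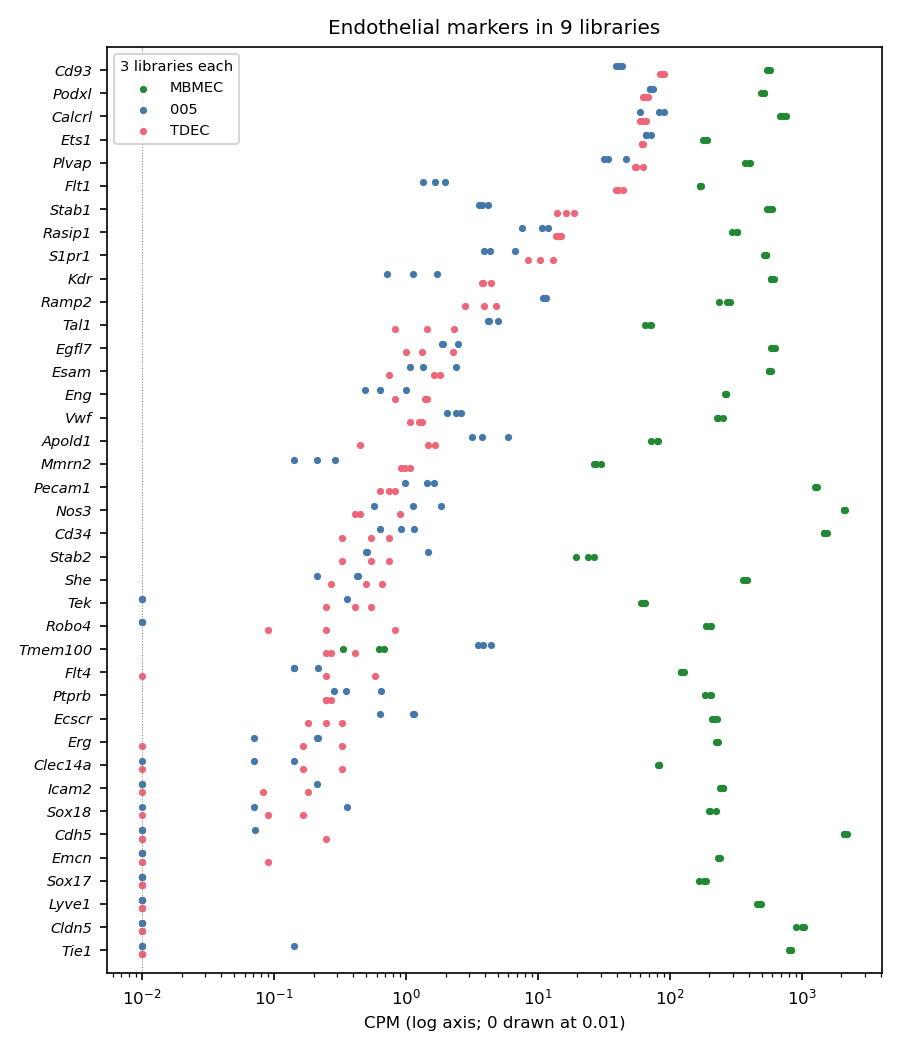
Points are the CPM of 39 endothelial markers in 3 libraries each of 005, TDECs and MBMECs on a log axis, ordered by the TDEC mean, with 0 drawn at 0.01. MBMEC points lie to the right of the others for 38 genes, TDEC and 005 points lie close together for most, and Flt1 and Robo4 are among those with a visible gap between them.

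Transcription factors of endothelium rose in part. Of 36 factors 29 were tested and 25 had a line, of which 7 rose toward MBMECs, 1 rose to their level, 1 fell toward them, 1 fell away, 1 rose away and 14 stayed, with a median position of 0.040. With 2 that had no line, 11 of the 29 were above 005 (37.9%, against 13.5% of all genes), and the 14 that stayed were 56% of those with a line, against 67.7%. The 7 were Klf2, Epas1 (HIF-2α), Ets2, Lmo2, Foxc2, Foxo1 and Bcl6b. Klf2, which shear stress induces, was at 10.9 to 12.7 CPM in 005, 41.5 to 45.0 CPM in TDECs and 225 to 239 CPM in MBMECs. Epas1 rose by 1.71 log2 units (SE 0.09) to 24.5% of the MBMEC level. Klf4 went from 2.33, 2.60 and 3.77 CPM in 005 to 42.4, 38.7 and 41.7 CPM in TDECs and counted as having reached MBMECs, at 57.9 to 63.0 CPM. Among the 14 that stayed, Erg, Fli1, Ets1, Elk3, Sox7, Sox17, Sox18, Lyl1, Prox1 and Mecom were at positions between -0.14 and 0.04, Gata2, Hhex and Nr2f2 at 0.20, 0.17 and 0.18, and Foxl2 at -0.26. Under library totals 8 factors rose in place of 11, no-line genes included.

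Junctions, barrier transporters and vascular signalling genes differed in how many rose. Of 29 junction and adhesion genes 27 were tested and 23 had a line, and 19 of these stayed (82.6%, against 67.7% of all genes with a line). Of the 27, 7 had under 10 counts in every 005 and TDEC library. These were tested through their MBMEC counts and had little room to fall, so that the share that stayed is partly set by the floor. Selp (P-selectin) and Ocln (occludin) rose toward MBMECs. Selp went from 0.0241 mean CPM in 005 to 0.459 in TDECs, against 415 in MBMECs. Its log2 difference of 3.81 rests on very few counts in 005. Ocln rose by 1.91 log2 units, from 0.191 to 0.745 mean CPM, against 11.3 in MBMECs. The junction protein Jup rose to the MBMEC level (8.88 mean CPM in 005, 32.9 in TDECs, 54.4 in MBMECs). Of 39 barrier transport genes 32 were tested and 21 had a line, and 13 of these were lower in MBMECs than in 005. There were 12 of the 32 above 005 (37.5%, against 13.5% of all genes). The lipid transporter Mfsd2a, a hallmark of the barrier, was at 23.9 to 27.1 CPM in 005, 24.3 to 27.5 CPM in TDECs and 0 to 0.134 CPM in MBMECs. For such genes the cultured MBMECs are the low end of the line. The glucose transporter Slc2a1 (GLUT1) rose from 27.0, 29.5 and 32.1 CPM to 244, 238 and 232 CPM, above the MBMEC level of 116 to 126 CPM by less than 2-fold. Of 40 genes of angiopoietin, apelin, BMP and other vascular signalling 35 were tested, all with a line, and 9 moved toward (25.7%, against 11.8% of all genes with a line), 3 reached (8.57%, against 7.25%), 18 stayed, 1 fell away and 4 rose away. Among the 9 were the BMP-SMAD inhibitor Smad6 (log2 difference 3.35, 9.91% of the MBMEC level), the ligands Bmp4 and Edn1, the receptors Ednrb, Ramp3, S1pr1 and Plaur, and the anticoagulant Thbd and Procr, which stood at 0.0772% and 0.437% of it. Adm (adrenomedullin) and the BMP target Id1 and the inhibitory Smad7 reached it.

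Vegfa, the main angiogenic ligand and itself a target of low oxygen, moved the other way. It was at 211, 215 and 280 CPM in 005, at 1892, 1858 and 1845 CPM in TDECs and 24.6, 25.6 and 25.3 CPM in MBMECs. The groups did not overlap, and TDECs were 2.99 log2 units above 005 (SE 0.09, edgeR adjusted p = 2.0e-14), a position of -0.94 ± 0.08 (SE). Angpt2, an angiopoietin, stayed at 48.7 to 75.04 CPM in 005 and 53.9 to 60.5 CPM in TDECs, with MBMECs at 7.45 to 8.43 CPM. The placental growth factor Pgf stayed at the level of 005 (2.76 and 2.98 mean CPM) below MBMECs (149). Of 33 arterial, venous and tip cell genes 28 were tested, and of 24 with a line 6 moved toward, 2 reached, 4 moved away and 12 stayed (50%, against 67.7% of all genes with a line). Notch4 rose from 0.926 to 1.01 CPM to 2.06 to 3.98 CPM, against 308 to 324 CPM in MBMECs. The ephrin Efnb2 rose from 15.98 to 64.0 mean CPM, counted as having reached the MBMEC mean of 123, whereas Cxcl12 and its receptor Cxcr4 both moved away. Cxcl12 fell from 0.333 mean CPM in 005 to 0.0552 in TDECs, both near the floor, against 933 in MBMECs. Cxcr4 rose from 5.71 to 11.5 mean CPM, against 0 in MBMECs.

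Genes of the vessel wall and its anchorage included several that came close to MBMECs. Of 28 basement membrane genes 24 were tested, and of 20 with a line 6 moved toward, 3 reached, 3 moved away and 8 stayed (40%, against 67.7% of all genes with a line), with a median position of 0.178. Lama5, a laminin of mature vessels, was at 133, 132 and 153 CPM in 005, 712, 698 and 705 CPM in TDECs and 653, 669 and 616 CPM in MBMECs, a position of 1.06. Lamb2, another laminin chain, also reached the MBMEC level, and Fbln2, Fbln5, Nid1 and Col18a1 rose toward it. Lama4, the laminin chain of endothelial basement membrane, was at 51.4 to 60.8 CPM in 005, 801 to 867 CPM in TDECs and 27.2 to 30.9 CPM in MBMECs. It rose by 3.86 log2 units (SE 0.07, edgeR adjusted p = 5.6e-16) to a level far above both ends. Lama1, a laminin of early embryos, rose from 1.59 to 2.49 CPM to 81.1 to 87.4 CPM and had no count in MBMECs. Fibronectin (Fn1) moved from 71.7 to 110 CPM to 494 to 548 CPM, or 32.7% of the MBMEC level. Of 30 genes of integrins and caveolae 29 were tested, and of 19 with a line 6 rose toward MBMECs, 1 rose away and 12 stayed (63.2%). Caveolin-1 (Cav1), the coat protein of caveolae, was among the 6 at 0.742 to 1.18 CPM in TDECs against 1062 to 1096 CPM in MBMECs. Itga3, at 13.3, 68.6 and 778 mean CPM in the 3 groups, went farther. Of 48 genes linked to YAP, TGF-beta and the cytoskeleton, 38 had a line, and 8 moved toward, 5 reached, 2 moved away and 23 stayed (60.5%). Those that moved toward or reached MBMECs were 34.2%, against 20.2% of all genes with a line that moved toward, reached or passed them. Of the 38, 34 were higher in MBMECs, a side on which that share over all genes was 24.3%. By library totals 9 genes of the list moved toward, reached or passed them, in place of 13. Cyr61 (Ccn1), a YAP target, reached the MBMEC level at 345 to 384 CPM from 8.62 to 12.3 CPM, and its relative Ctgf (Ccn2) went from 0.142 to 4.83 mean CPM, against 84.8. The filamins, talin and the S100 proteins S100a6 and S100a10 stayed.

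Stem cell genes fell in part. Of 30 neural and glioma stem cell genes, all tested, 23 had a line, and 9 of 21 with lower levels in MBMECs fell toward them, with 11 of the 30 below 005 (36.7%, against 9.84% of all genes). Olig2, which marks oligodendrocyte precursors and glioma stem cells, fell from 521, 522 and 609 CPM to 219, 217 and 209 CPM. The groups did not overlap, and with no Olig2 count in MBMECs its log2 difference of -1.36 from 005 (SE 0.07, edgeR adjusted p = 1.8e-10) gave a position of 0.11. The Notch target Hes5 fell by 2.76 and the Notch ligand Dll3 by 3.20 log2 units, and Olig1, Fabp7, Sox11, Lgr5 and Pou3f2 fell as well. Sox2 was at 227 to 247 CPM in TDECs, a log2 difference of -0.34 (SE 0.06) that is under 2-fold, and Sox9, Ptprz1, Nes and Msi1 stayed as well. Prom1 (CD133) rose away from MBMECs, from 22.2 to 27.1 CPM to 107 to 114 CPM, and Id4 from 1.99 to 2.47 CPM to 27.7 to 32.0 CPM. Of 11 oligodendrocyte lineage genes with a line 5 fell toward MBMECs (45.5%, against 11.8% of all genes with a line that moved toward them), among them Cspg4 (NG2, -2.28) and Lhfpl3 (-3.27). The receptor Gpr17 fell away (-5.10) and Gpr37l1 rose away (2.08). Among 22 neuronal genes with a line, 4 fell toward MBMECs, 2 fell to their level, 4 rose away and 12 stayed. Of the 23 tested, 26.1% were below 005 (against 9.84% of all genes) and 21.7% above (against 13.5%). Dcx (doublecortin) fell from 51.8 to 62.4 CPM to 0.913 to 1.24 CPM, and Gad1, Vgf, Eno2 and Snap25 rose away.

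Several astrocyte genes moved away from MBMECs. Of 21 genes 19 were tested and 18 had a line, 15 of them lower in MBMECs, and 8 of the 19 were above 005 (42.1%, against 13.5% of all genes). The 6 of these that moved away were among the 15, where 16.6% of all genes lower in MBMECs did so. Of the 18 with a line, 10 stayed (55.6%, against 67.7% of all genes with a line), 1 fell away and 1 rose past MBMECs. The intermediate filament Gfap was at 3.603, 2.38 and 5.70 CPM in 005, 31.2, 35.1 and 34.2 CPM in TDECs and 0.0669 to 0.343 CPM in MBMECs. The glutamate transporter Slc1a2 rose from 19.1 to 20.6 CPM to 63.4 to 76.0 CPM and had no count in MBMECs. Glul, Clu and Aldh1l1 rose with them. The median position of the list was -0.123.

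Genes that respond to low oxygen rose in TDECs, in most cases without leading to MBMECs. Of 43 hypoxia and glycolysis genes, all tested, 31 were above 005 and 0 below (72.1% above, against 13.5% of all genes), and the 31 were spread over classes: 14 had no line, 9 moved away, 6 reached and 2 went past. By library totals 29 were above, and 4 moved toward, reached or went past in place of 8, with 9 away in both. The spread over classes thus depends on the scaling. Pgk1, a glycolytic enzyme, reached the MBMEC level at 1882, 1844 and 1939 CPM from 614, 627 and 578 CPM (MBMECs 1207 to 1219 CPM). P4ha2, a collagen prolyl hydroxylase, passed it at 102, 108 and 112 CPM from 6.57, 5.05 and 10.8 CPM (MBMECs 43.8 to 48.0 CPM). Bnip3, a mitophagy receptor, moved away at 377, 365 and 376 CPM from 48.4, 45.7 and 57.0 CPM (MBMECs 17.5 to 19.3 CPM). All 3 rose from 005 and differed in where MBMECs stood. The 250 bases before the start of each are printed as examples of promoters that hold the core of the hypoxia response element, ACGTG on either strand, set in capitals. The sequences are from RefSeq on GRCm38.p6, each on the strand of its gene, at chrX:106186850-106187099 (plus), chr11:54100674-54100923 (plus) and chr7:138909507-138909756 (minus).
Pgk1: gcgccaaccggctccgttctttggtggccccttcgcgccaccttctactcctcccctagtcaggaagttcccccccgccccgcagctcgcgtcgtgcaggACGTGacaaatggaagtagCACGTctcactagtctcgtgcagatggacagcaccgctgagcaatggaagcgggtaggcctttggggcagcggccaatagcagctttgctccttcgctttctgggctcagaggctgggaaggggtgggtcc
P4ha2: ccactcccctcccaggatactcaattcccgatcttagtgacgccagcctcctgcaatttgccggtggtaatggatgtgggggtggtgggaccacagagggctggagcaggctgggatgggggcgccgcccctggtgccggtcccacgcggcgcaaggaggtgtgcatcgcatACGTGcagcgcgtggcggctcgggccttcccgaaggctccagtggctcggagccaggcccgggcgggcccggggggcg
Bnip3: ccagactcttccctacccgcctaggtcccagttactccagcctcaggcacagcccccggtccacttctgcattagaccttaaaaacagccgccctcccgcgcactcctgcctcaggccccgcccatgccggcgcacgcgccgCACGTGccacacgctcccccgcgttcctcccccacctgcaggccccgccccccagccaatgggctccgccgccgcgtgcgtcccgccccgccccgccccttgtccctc
In Bnip3 the 2 matches overlap on opposite strands. The same letters are in 16.6% of the 27025 such windows in the promoter table. These genes were chosen because they hold them, so that the match says nothing about why they rose or about their class. Shares by class are not given, since only 66.8% of the tested genes had a promoter in the table, which leaves that comparison void.

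Stress genes rose in TDECs across several classes. Of 24 unfolded protein response genes 20 were above 005 (83.3%, against 13.5% of all genes) and 0 below. The MBMEC level was reached by 6 of the 8 with a line (75%, against 7.25% of all genes with a line), where library totals gave 17 above and 1 that moved toward, reached or passed. The chaperone Hspa5 (BiP) was at 455 to 554 CPM in 005, 3236 to 3588 CPM in TDECs and 866 to 914 CPM in MBMECs. Of 32 integrated stress response genes 29 were above 005 (90.6%, or 22 genes by library totals), of which 18 had no line, 8 moved away, 1 reached and 2 went past. Ddit3 (CHOP) went from 21.97 to 30.1 CPM to 201 to 220 CPM, with MBMECs at 26.3 to 29.5 CPM. Of 33 tested immediate early genes 21 were above 005 (63.6%). Fosb went past MBMECs, from 1.91, 2.74 and 3.35 CPM to 382, 399.5 and 389 CPM against 10.1, 14.5 and 13.4 CPM, a position of 3.24. Fos, Egr1 and Egr3 had no line, with means of 26.3, 55.1 and 0.687 CPM in 005, 723, 1193 and 22.6 CPM in TDECs and 18.1, 99.7 and 0.391 CPM in MBMECs. The heme oxygenase Hmox1 went past the MBMEC level of 589 to 605 CPM, at 1461 to 1498 CPM from 51.2 to 56.6 CPM. The metallothioneins Mt1, Mt2 and Mt3 moved away, Mt2 from 10.9 to 408 mean CPM against 0.702 in MBMECs, and these close relatives may share reads. Of 28 lysosomal genes tested 19 were above 005 (67.9%, or 11 genes by library totals), 5 at the MBMEC level, among them Lamp1, Ctsb and Ctsl.

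Proliferation genes fell in TDECs, mostly where 005 and MBMECs were not called apart. Of 40 cell cycle genes, all tested, 38 were below 005 (95%, against 9.84% of all genes), and 35 of these had no line for that reason. Mki67, the Ki-67 antigen, was at 383, 387 and 331 CPM in 005, at 10.7, 10.3 and 10.6 CPM in TDECs and 381, 407 and 334 CPM in MBMECs. The TDEC libraries lay below all others, by 5.12 log2 units from 005 (SE 0.10) and by 5.15 from MBMECs (SE 0.10). The others were Nusap1, which fell past MBMECs, E2f2, which fell to their level, and Tyms, which fell away from them. The count was 38 under each scaling and without any 1 library. Among cholesterol and fatty acid genes, 27 of 28 with a line were lower in MBMECs, 3 fell toward them, 6 reached them and 19 stayed (67.9%, against 67.7% of all genes with a line), with a median position of 0.374. Hmgcs1, an early enzyme of sterol synthesis, was at 437, 154 and 91.0 mean CPM in 005, TDECs and MBMECs. All 24 interferon and antigen presentation genes with a line were higher in MBMECs, and 20 stayed (83.3%), 3 fell away and 1 reached. Of the 30 tested, 5 had under 10 counts in every 005 and TDEC library. Bst2 (tetherin) was at 0.498 to 1.08 CPM in 005, 0.495 to 0.913 CPM in TDECs and 353 to 377 CPM in MBMECs.

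**Figure D4:**
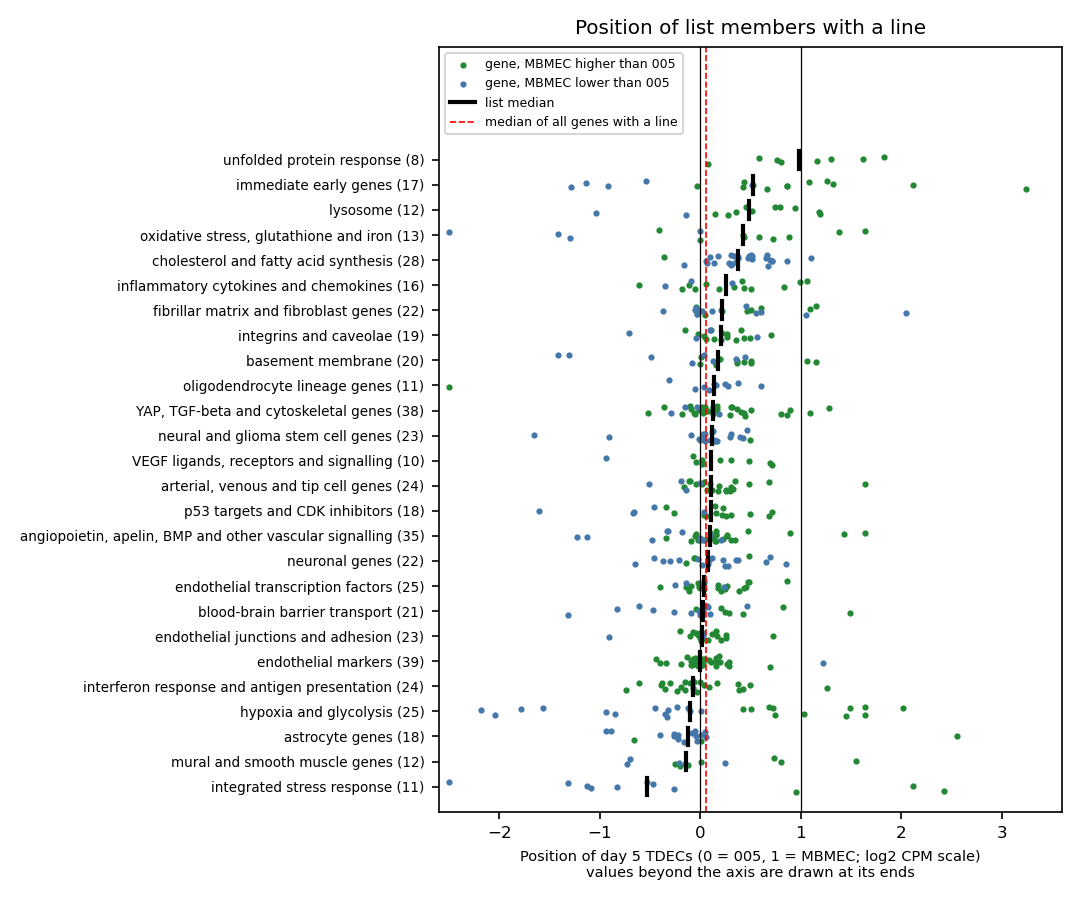
Each point is a gene with a line, placed at its position on the log2 CPM scale from 005 (0) to MBMEC (1), for the 26 lists with at least 8 such genes, with black bars at list medians and the number of genes in brackets. Endothelial markers centre on 0.000, integrated stress response genes on -0.528 and unfolded protein response genes on 0.980, against 0.054 for all genes (dashed), and 3 points beyond the axis are drawn at its ends.

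Over all genes, each class was led by the genes with the largest changes between TDECs and 005. Among the 378 genes that rose toward MBMECs, these were Fam107a, an actin-associated protein, the angiotensin converting enzyme Ace, Akr1c14, Cdh26, Robo4, Col8a1, Ctgf and Pla2g4a. Ace, which endothelium carries on its surface, was at 0.424, 0.216 and 0.641 CPM in 005, 33.9, 34.1 and 36.9 CPM in TDECs and 131, 131 and 129 CPM in MBMECs, a position of 0.76 ± 0.01 (SE). The 491 that fell toward MBMECs included the imprinted RNA H19 (19.4, 17.3 and 26.7 CPM in 005 and 0.181, 0.415 and 0.330 CPM in TDECs), Dcx, Capn6, Kcnv1, Fbln1, St6gal2 and Prr18. The median position was 0.376 among the first and 0.331 among the second. Without 005 replicate 3 the counts were 391 and 500.

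The 311 genes that rose to the MBMEC level included Dhrs3, a retinaldehyde reductase, Steap1, Lpin3, Cyr61, the prostaglandin synthase Ptgs2, Chrna1, Klf4 and Clcf1. Reaching here means no call, and 170 of the 311 still differed from MBMECs at an adjusted p under 0.05 by less than 2-fold, as did 71 of the 223 that fell to the level. Ptgs2 was among the closest, at 54.5, 54.0 and 54.3 CPM in TDECs and 51.6, 65.0 and 52.7 CPM in MBMECs, from 1.91, 1.66 and 1.78 CPM in 005. The 223, which were 340 by library totals and 349 when each comparison was fitted on its own 6 libraries, were led by Rtkn2, Clmp, E2f2, Kif18a, Hlx, Sdc3, Bahcc1 and Fam212b. Rtkn2 went from 36.4 to 36.8 CPM to 0.660 to 1.58 CPM, with MBMECs at 1.38 to 2.41 CPM. The 42 genes that rose past MBMECs were led by Fosb, Soat2, the copper protein Cp (ceruloplasmin), Cftr, Hmox1, Apobr, Daam2 and Ppp1r15a, which ends the arrest of translation in the integrated stress response. Leaving out 005 replicate 3 gave 355 that rose to the level and 52 that rose past it. The 40 that fell past MBMECs, 74 by library totals, were led by Pif1, Kif14, Esco2, Nusap1, Aspm, Sapcd2, Cdca2 and Exo1, which act in mitosis or DNA replication and repair.

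Among the 174 that fell away were Pf4 (platelet factor 4), E2f8, Tll1, Gng11, Neil3, Net1, Gtse1 and Psrc1. Pf4 was at 1.34, 1.01 and 1.28 CPM in 005, had no count in TDECs and was at 13.7, 12.5 and 15.1 CPM in MBMECs, so that 005 was at least 14.2-fold higher than TDECs, taken from the floor of 3 counts. The 721 that rose away were led by the retinoic acid receptor Rarb, Stbd1, the calcium pump Atp2a3, Crispld2, Lama1, Mt2, Hr and Gpr158. Rarb was at 0.212, 0.721 and 0.712 CPM in 005, 51.1, 52.3 and 56.3 CPM in TDECs and 0.137 to 0.250 CPM in MBMECs. Its line is short and its ends are low, and the position of -6.89 has an SE of 3.76. Of the genes with no line, Otog, Sds, Lcn2, Tmem179 and Scg2 rose most and Depdc1b, Dscc1, Spc24, Rrm2 and Arhgef39 fell most. Otog, a gene of the inner ear, had no count in 005 and averaged 53.5 CPM in TDECs, at least 750.1-fold higher against 3 counts over the group, and 0.0669 CPM in MBMECs.

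**Figure D5:**
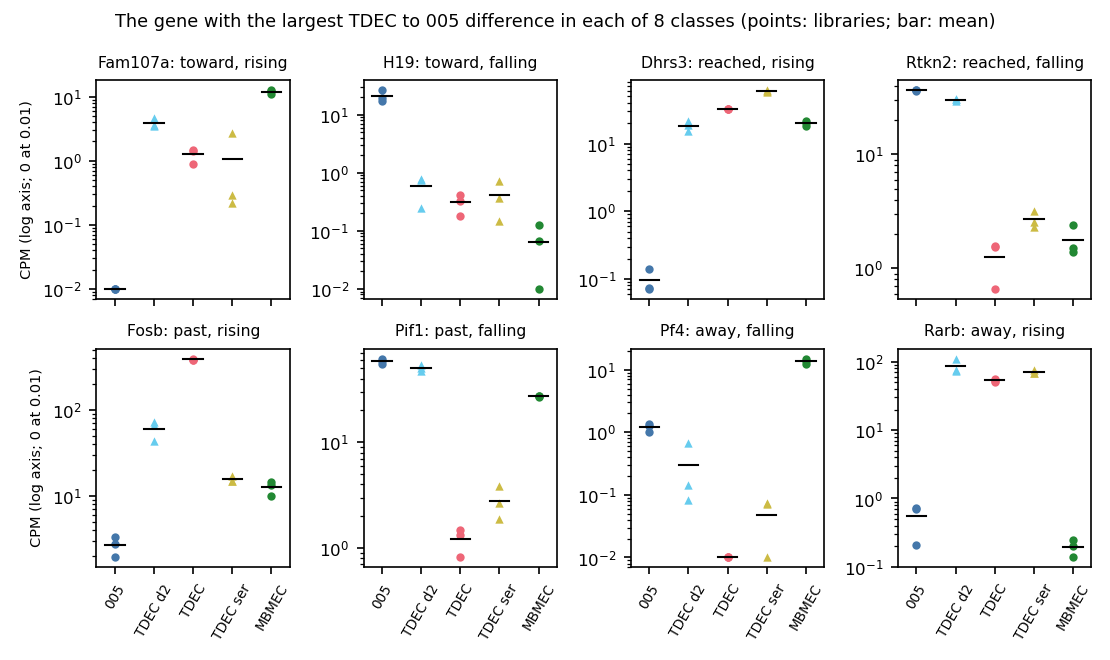
CPM on a log axis (0 drawn at 0.01) of the gene with the largest difference between TDECs and 005 in each of 8 classes, with points for 3 libraries per group, triangles for the day 2 and sertraline libraries and bars for means. Dhrs3 already stood at 15.3 to 21.2 CPM on day 2, whereas Rtkn2 and Pif1 on day 2 were still near 005, and Fosb in sertraline-treated TDECs was at 14.8 to 16.8 CPM.

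The day 2 and sertraline libraries, which played no part in the classes but share the 005 and MBMEC ends, were read on the same lines as a description. Of the 378 genes that rose toward MBMECs, 292 (77.2%) had all 3 sertraline libraries on the MBMEC side of every 005 library, as did 462 of the 491 that fell (94.1%), against 40.5% of all genes with a line. On day 2 these were 169 (44.7%) and 305 (62.1%), against 31.4%. Among the 721 that rose away, 581 (80.6%) had all sertraline libraries on the far side of 005, against 24% of all genes with a line. On day 2 these were 316 (43.8%), against 18.4%. The median position of the genes that rose to the MBMEC level was 0.337 on day 2, 0.905 in TDECs and 0.821 with sertraline. For those that fell past it, the medians were 0.136, 2.168 and 1.996. The endothelial markers had medians of -0.013, 0.000 and 0.000 in the same order. Single markers differed: Flt1 was at 13.7 to 16.4 CPM on day 2 and 18.7 to 21.8 CPM with sertraline, and Cav1 was at 2.59 to 4.50 CPM on day 2, above the TDEC libraries.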

How the data were processed

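The authors sequenced strand-specific libraries of poly(A) RNA and deposited raw counts of reads per gene, whole numbers that were not normalized. Tools named in the processing notes of the submitters are featureCounts 1.6.3, HISAT2 2.1.0, Trimmomatic 0.38 and bcl2fastq 2.19, with the build mm10. The strand setting, the treatment of reads with several alignments and the annotation release are not given in the sources used here, so close paralogs, genes with pseudogenes and overlapping genes are uncertain.

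Groups were taken from the labels. In R 4.3.3 with edgeR 4.0.16, genes passing filterByExpr (minimum count 10) were scaled by TMM and fitted in 1 model over the 9 libraries (glmQLFit, glmQLFTest, two-sided, Benjamini-Hochberg adjustment over all genes). Calls needed an adjusted p under 0.05 and a log2 fold change above 1, as in the study. Positions used log2 CPM (prior count 2), and those of day 2 and sertraline libraries TMM over 15 libraries. DESeq2 1.42.0 was an alternative. The scripts were tested on simulated data. Members and lists were chosen with earlier results of these data known. Named genes were the 8 largest changes per class (5 where there was no line) among genes with at least 10 CPM in the highest group, up to 5 called members per class of a list, all endothelial markers and the vessel genes the study names. Other members, given for contrast, were chosen after their values were seen. The TDEC depth of 11283680 counts and above means that 3 counts over the 3 libraries is the floor used for a group at 0, which covers counting error only. Some genes that the rule names are not reported here.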

Additional observations from a re-analysis of the deposited data

How the results depend on the processing

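The 11 counts of genes and the 7 counts of list members stayed within 1.5 times under most alternatives. Genes that fell to the MBMEC level numbered 340 by library totals, 342 with genes of at least 1 count and 349 with each comparison on its own 6 libraries, against 223, and genes that fell past it numbered 74 by library totals. With an adjusted p alone and no fold threshold, 1297 genes rose and 1594 fell toward MBMECs, 571 and 658 reached them, 511 and 557 went past, 1383 fell and 2100 rose away, and 10568, 13271 and 13729 genes were called between TDECs and 005, MBMECs and 005, and TDECs and MBMECs. Endothelial markers below 005 then numbered 9 and stem cell genes 21. Leaving out single libraries gave 5 to 8 endothelial markers below 005, against 5, and a median position of 0.053 to 0.065. The median position was 0.072 by library totals, 0.068 with genes of at least 1 count, 0.056 with a minimum count of 30, 0.069 on 6 libraries per comparison, 0.073 with no fold threshold and 0.035 on linear CPM, an alternative chosen after seeing the data, as were those of list members. The projection of TDECs was 0.0793 by library totals, 0.0572 and 0.0737 with prior counts of 0.5 and 5, 0.0758 with at least 1 count, 0.0644 with a minimum of 30 and 0.0642 over genes with a line. Of the 70 named genes with a line that lead a class or that the study names, 69 kept the sign of their position under other prior counts, library totals and without single libraries, and Angpt2, at -0.007, went to 0.046 by library totals and to 0.034 at the highest without a library.

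Among the 9 libraries of 005, TDECs and MBMECs no tie by replicate number was seen. Deviations from the group means correlated at -0.022 to 0.077 between libraries of the same number and at -0.111 to 0.058 between others. The day 2 and sertraline libraries were not examined in this way. With the replicate block 3846 genes were called between TDECs and 005 and 374 rose toward MBMECs, and no count moved by over 1.5 times. Genes at a few counts in 005 and TDECs have positions that depth limits.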

Other observations

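Annotation terms that the count table attaches to genes, looked at after it had been seen, gave median positions between 0.037 and 0.095, against 0.054 for all genes with a line. Of 194 tested angiogenesis genes 129 had a line, with a median position of 0.090, and 55 were above 005 (28.4%, against 13.5% of all genes) and 12 below (6.19%, against 9.84%). Of 56 tested vasculogenesis genes 34 had a line, with a median of 0.095, and of 343 tested cell adhesion genes 259 had one, with a median of 0.074. Nervous system development had 58 genes above and 58 below 005 of 343 tested (16.9% each), with 160 of 215 lines leading down to MBMECs and a median position of 0.070. Axon guidance, with 135 genes tested, had 28 above (20.7%), 19 below (14.1%) and a median position of 0.037.

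Among 23 tested p53 targets and CDK inhibitors, Cdkn1a (p21) rose toward MBMECs, from 25.8 to 39.2 CPM in 005 to 207 to 222 CPM in TDECs against 444 to 483 CPM, and 15 stayed. Cdkn2a rose away, from 192 to 251 CPM to 635 to 693 CPM, with MBMECs at 36.7 to 41.0 CPM. Vimentin (Vim), an intermediate filament of stem, endothelial and mesenchymal cells, fell from 1957 to 2056 CPM to 571 to 613 CPM, while MBMECs held 3690 to 3936 CPM, which left it without a line at a log2 difference of 0.92. Gapdh, a gene with many processed pseudogenes, was at 35.7 and 46.9 mean CPM in 005 and TDECs and at 47.7, 147 and 47.9 CPM in the MBMEC libraries. Tpi1, another glycolytic enzyme, averaged 666 CPM in 005.

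Of 22 genes of oxidative stress, glutathione and iron, all tested, 13 were above 005 (59.1%, against 13.5% of all genes) and 0 below (against 9.84%), with a median position of 0.425 over 13 lines. Of 30 tested fibrillar matrix and fibroblast genes 10 were above (33.3%) and 4 below (13.3%), with a median of 0.211, and of 20 tested inflammatory cytokines and chemokines 7 (35%) and 3 (15%), with a median of 0.252. Of 13 tested mural and smooth muscle genes 7 were above (53.8%) and 1 below (7.69%), with a median of -0.141. By library totals 4 mural genes were above and 2 below, and 8 and 6 of the fibrillar list. The inflammatory list then had 6 above and 4 below, and the oxidative stress list 11 and 0.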
